A study of Mus musculus with 4 samples.

Results

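The subject is a set of 10 genes that mark maturing neutrophils, followed across 4 RNA-seq libraries of mouse bone marrow LSK cells, the lineage-negative cells with Sca-1 and c-Kit at their surface, which hold blood stem cells and early progenitors. The genes were given by name as S100a8, S100a9, Ltf, Ngp, Camp, Lcn2, Mmp8, Retnlg, Cd177 and Ly6g, and 9 of the 10 matched a row among the 15255 genes of the deposited table. Ly6g was not analysed here. The libraries were 2 from Afg3l2 KO mice and 2 from Afg3l2 WT mice, all from freshly separated primary cells washed in PBS and poly(A)-selected. The labels give no age, strain, Cre driver or deleted exon for the KO, no list of the lineage antibodies, and no word on pooling or on whether libraries 1 and 2 of a group came from separate mice, so p-values measure only the spread between libraries. Afg3l2, which encodes a protease subunit of mitochondria, held 36.7 and 30.1 CPM in the KO libraries and 79.6 and 86.0 CPM in the WT libraries. That fall passed the test (limma adjusted p = 0.0115).

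Neutrophils load their granules in waves. The primary granule proteins are made first, in promyelocytes, and the secondary and tertiary granule proteins later, in myelocytes and beyond, under the transcription factor C/EBP epsilon in the mouse. The genes described here belong to the later waves, or to the cytosol and surface of the same maturing cells. S100a8 and S100a9 encode the subunits of calprotectin, a calcium- and zinc-binding protein that fills the neutrophil cytosol. Ltf (lactoferrin, which binds iron), Ngp (a cathelicidin relative), Camp (the precursor of the antimicrobial peptide CRAMP) and Lcn2 (which binds bacterial siderophores) are secondary granule genes. Mmp8 is the neutrophil collagenase, Retnlg a small secreted resistin-like protein, and Cd177 a GPI-linked surface glycoprotein. They are textbook markers of cells later in development than the LSK gate. In bulk samples, fewer cells of a type and less RNA per cell cannot be told apart.

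The 9 measured genes lie on 5 chromosomes of GRCm38 (GENCODE M21 positions). S100a8 (ENSMUSG00000056054, chr3:90668978-90670035) and S100a9 (ENSMUSG00000056071, chr3:90692632-90695721) lie 22.6 kb apart. Camp (ENSMUSG00000038357, chr9:109847379-109849617), Ngp (ENSMUSG00000032484, chr9:110419747-110423012) and Ltf (ENSMUSG00000032496, chr9:111019271-111042767) share a stretch of chromosome 9, with 570 kb and 596 kb between neighbours. Mmp8 (ENSMUSG00000005800, chr9:7558456-7568485) is on the same chromosome but far off. Lcn2 (ENSMUSG00000026822) lies at chr2:32384633-32388252, Cd177 (ENSMUSG00000052212) at chr7:24743983-24760311 and Retnlg (ENSMUSG00000022651) at chr16:48872621-48874496. None of the 9 shares exon sequence with another annotated gene on either strand, so reads of unstated strand were not split between overlapping genes.

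The promoters of measured genes are shown where they hold a C/EBP-like motif. A relation of the motif to the pattern over the libraries was not tested. The motif was TTNNGCAA or its reverse complement TTGCNNAA, searched in the RefSeq promoter windows of GRCm38.p6. These windows span 250 bases before to 50 after each annotated start, and a gene counted if any of its windows held a match. It was found for 7 of the 10 named genes (Ltf, Ngp, S100a9, Lcn2, Mmp8, Retnlg and Ly6g), against 12.2% of the 27025 genes and 10.8% of the 32851 windows in the RefSeq table. S100a8, Camp and Cd177 had no match in these windows. A match of letters is a description and not a bound site. The 250 bases before the start of Ngp (chr9:110419558-110419807, plus strand) and Ltf (chr9:111019042-111019291, plus strand) follow 5′ to 3′, with the motif in capitals.
Ngp: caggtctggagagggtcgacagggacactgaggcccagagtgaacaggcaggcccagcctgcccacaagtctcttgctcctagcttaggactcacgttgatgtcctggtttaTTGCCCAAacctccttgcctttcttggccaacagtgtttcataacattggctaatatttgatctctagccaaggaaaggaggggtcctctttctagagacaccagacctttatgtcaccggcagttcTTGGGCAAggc
Ltf: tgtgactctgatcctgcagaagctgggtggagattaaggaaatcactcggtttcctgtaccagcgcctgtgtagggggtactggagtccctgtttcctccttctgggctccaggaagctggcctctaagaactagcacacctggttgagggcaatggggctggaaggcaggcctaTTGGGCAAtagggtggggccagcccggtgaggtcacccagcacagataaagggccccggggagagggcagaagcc

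Ngp carries the motif at 2 places, 138 to 131 and 11 to 4 bases before the RefSeq start, and Ltf at 1 place, 75 to 68 bases before it. RefSeq and GENCODE starts differ for some genes. The nearer Ngp match (chr9:110419797-110419804) and the Lcn2 match (chr2:32387948-32387955) lie inside the GENCODE bounds of these genes given above. The shorter stretches around the other matches of measured genes are S100a9 (chr3:90695934-90695971, minus strand), Lcn2 (chr2:32387932-32387971, minus strand), Mmp8 (chr9:7558394-7558428, plus strand) and Retnlg (chr16:48872358-48872385, plus strand), again with the motif in capitals. Lcn2 and Mmp8 share the same 8 letters, as do Ltf and the Ngp match nearer the start.
S100a9: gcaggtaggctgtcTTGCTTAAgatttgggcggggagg
Lcn2: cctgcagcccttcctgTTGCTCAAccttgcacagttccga
Mmp8: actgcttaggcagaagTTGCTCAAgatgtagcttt
Retnlg: agctTTCTGCAAggcattccaggcacct

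The granule genes did not separate KO from WT cells. In 8 of the 9, both KO libraries lay between the WT libraries, above WT replicate 1 and below WT replicate 2; this order held for 6.69% of all 15255 genes. For Retnlg, KO replicate 2 fell below WT replicate 1. The values below are CPM, that is reads scaled for library size by the authors, and 1 read was worth 0.0566 to 0.0603 CPM.

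The calprotectin genes were the most abundant. S100a8 had 248 and 183 CPM in KO replicates 1 and 2, against 36.4 and 451 CPM in WT replicates 1 and 2. S100a9 had 310 and 199.9 CPM in the KO libraries, against 28.4 and 674 CPM in the WT libraries. For both genes the groups overlapped, with the lowest and the highest library both WT.

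**Figure D1:**
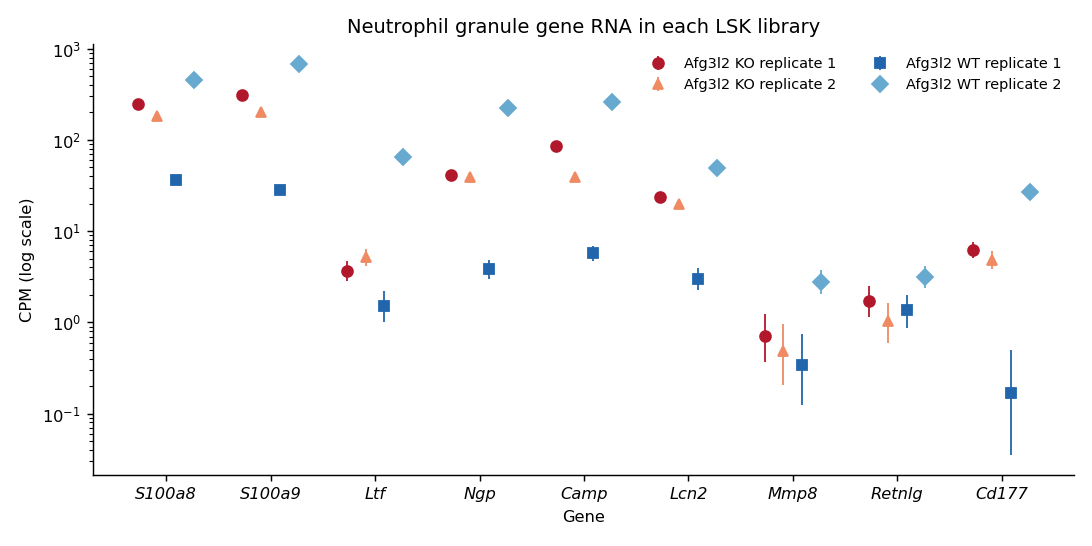
CPM on a log scale of the 9 measured granule genes in each library, with exact 95% Poisson intervals of the read counts (counting error only). WT replicate 2 is the highest library for every gene, and WT replicate 1 is the lowest for all but Retnlg.

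Among the secondary granule genes the WT libraries also stood far apart, further than for either calprotectin gene in Ngp, Camp and Ltf, but not in Lcn2. Ngp had 40.7 and 39.2 CPM in the KO libraries, against 3.85 and 226 CPM in the WT libraries. Camp had 86.0 and 38.7 CPM in the KO libraries, against 5.72 and 260 CPM in the WT libraries. The KO libraries were close to each other for Ngp and differed 2.22-fold for Camp, the largest gap between KO libraries among the 9. Lcn2 had 23.4 and 20.0 CPM in the KO libraries, against 2.999 and 48.9 CPM in the WT libraries. Ltf had 3.68 and 5.19 CPM in the KO libraries, against 1.53 and 65.1 CPM in the WT libraries. Lactoferrin RNA was thus the nearest to WT replicate 1 of the 4, with a KO mean 2.90 times that library and 0.0682 times WT replicate 2.

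The remaining genes rested on fewer reads. Cd177 had 6.24 and 4.89 CPM in the KO libraries, from 105 and 81 reads, against 0.170 and 26.5 CPM in the WT libraries, from 3 and 447 reads. The 95% Poisson interval of the lower WT value ran from 0.0350 to 0.496 CPM, below both KO values. Mmp8 had 0.713 and 0.483 CPM in the KO libraries, against 0.340 and 2.79 CPM in the WT libraries. Its counts were 12 and 8 reads in KO and 6 and 47 reads in WT, so the KO libraries could not be told from WT replicate 1 at this depth. Retnlg had 1.72 and 1.03 CPM in the KO libraries, against 1.36 and 3.14 CPM in the WT libraries. Its 17 to 29 reads in the lower 3 libraries left their intervals overlapping.

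Set per kilobase of exon, the order of levels over the 4 libraries was S100a9, S100a8, Camp, Ngp, Lcn2, Ltf, Cd177, Retnlg and Mmp8, with mean CPM per kb of 581, 331, 129, 63.3, 9.09, 5.47, 3.33, 3.06 and 0.446. S100a9 exceeded S100a8 in each library, but in WT replicate 1 only as 54.3 against 52.5 CPM per kb. Some neighbours changed places between libraries. Lcn2 stood above Ltf in both KO libraries, at 8.92 and 7.64 against 1.07 and 1.504 CPM per kb, while in WT replicate 2 they were level at 18.7 and 18.9 CPM per kb. Retnlg stood above Cd177 in KO replicate 1 and WT replicate 1 and below it in WT replicate 2, and they were level at 1.73 and 1.72 CPM per kb in KO replicate 2.

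Over all 4 libraries, 0 of the 9 genes passed higher and 0 passed lower in the KO by limma on log2(CPM + 1), with p-values adjusted by Benjamini-Hochberg across the 15255 genes and a threshold of 0.05. The background was 1.58% of 15255 genes called higher and 0.839% called lower. At an unadjusted p under 0.05 the count was also 0, against 3171 of the 15255 genes. EdgeR and DESeq2 on whole reads recovered from the CPM called 0 as well, where they called 1.88% and 9.26% of all genes. Limma and edgeR with a replicate block called 0 of the 9 and 11.7% of all genes each. Median-of-ratios scaling (2.68%), a filter of 1 CPM (2.68%) and a pseudocount of 0.1 CPM (2.31%) likewise called 0 of the 9. The adjusted p by limma ran from 0.579 for Retnlg to 0.967 for Cd177. Both KO libraries lay above both WT libraries for 0 of the 9 genes, against 27.2% of all genes, and below both for 0, against 26.9%. In the authors' deposited table, whose fit was their own, the adjusted p of the 9 genes ran from 0.646 to 0.950 while 11.5% of all genes were under 0.05, and 0 of them stand on the deposited lists of 921 higher and 834 lower genes.

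The sign of the difference also depended on how the WT libraries were averaged. By the ratio of mean CPM all 9 genes were lower in the KO, with ratios of 0.133 (Ltf) to 0.884 (S100a8); 52.2% of all genes had a ratio below 1. By limma, which averages on the log scale, 6 of the 9 had a log2 fold change above 0, as did 48.4% of all genes: S100a9 at 0.83 ± 2.13 (SE), S100a8 at 0.72 ± 1.67, Lcn2 at 0.68 ± 1.57, Camp at 0.49 ± 2.51, Ngp at 0.30 ± 2.58 and Cd177 at 0.20 ± 1.96. Ltf, Mmp8 and Retnlg were below 0, at -1.26 ± 2.03, -0.50 ± 0.49 and -0.41 ± 0.38. Such a clash of signs, with the log scale above 0 and the ratio below 1, occurred in 0.905% of all genes. The SE exceeded the size of the estimate in 7 of the 9 genes, all but Mmp8 and Retnlg; the median SE was 1.96 for the 9 and 0.23 over all genes. EdgeR and DESeq2 with group only, which estimate a ratio of means, put all 9 below 0. With a replicate block, edgeR put 6 of the 9 above 0.

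Leaving out 1 WT library at a time turned the result to opposite calls. For 8 of the 9 genes the signs follow from the order of the libraries given above, so these fits add no separate evidence of direction. Without WT replicate 1, all 9 genes had log2 fold changes below 0 and 6 passed as lower and 0 as higher in the KO (limma), against 2.46% and 1.84% of all genes: Ltf at -3.62 ± 0.33 (SE), Ngp at -2.47 ± 0.19, Cd177 at -2.08 ± 0.33, S100a9 at -1.43 ± 0.26, Lcn2 at -1.14 ± 0.23 and S100a8 at -1.08 ± 0.21. Camp had an adjusted p = 0.393, Mmp8 0.118 and Retnlg 0.349 in that fit (limma).

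Without WT replicate 2, 8 of the 9 had log2 fold changes above 0 and 5 passed as higher and 0 as lower in the KO (limma), against 4.45% and 2.55% of all genes: S100a9 at 3.09 ± 0.26, Ngp at 3.08 ± 0.26, S100a8 at 2.51 ± 0.22, Lcn2 at 2.50 ± 0.31 and Cd177 at 2.48 ± 0.40. Camp, at 3.13 ± 0.58, missed the threshold with an adjusted p = 0.09001, and Ltf, at 1.09 ± 0.40, with 0.129 (limma). The lone WT library of each fit is assumed to vary as the KO libraries do, and the spread seen between the WT libraries is then left out. The same 5 genes passed in both fits with opposite signs. Leaving out a KO library called 0 of the 9 in each case, with 0.42% of all genes called without KO replicate 1 and 0% without KO replicate 2 (limma).

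**Figure D2:**
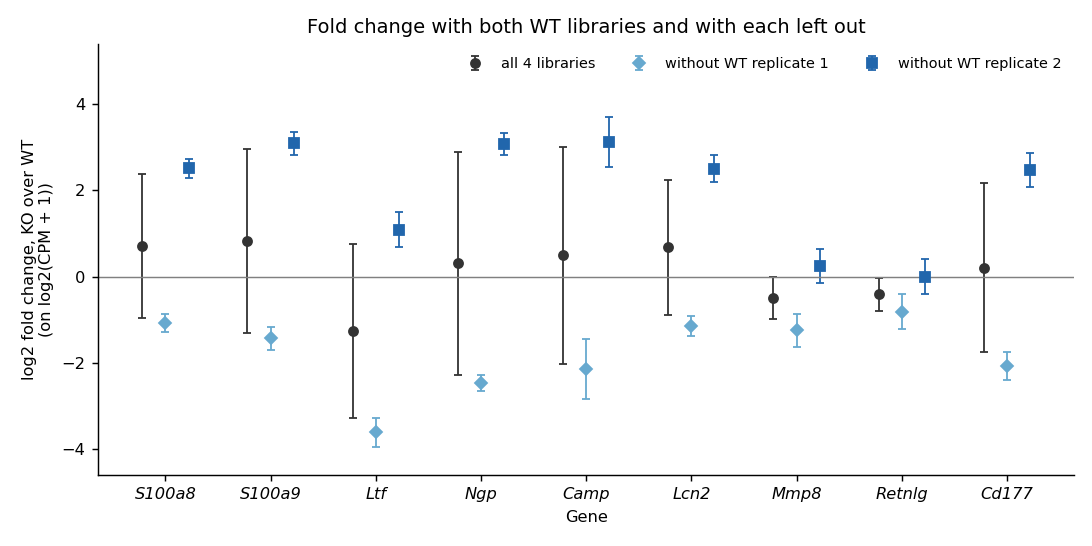
Limma log2 fold change, KO over WT, of each granule gene with all 4 libraries, without WT replicate 1 and without WT replicate 2; bars are SE. With 1 WT library the estimates lie on opposite sides of 0 for most genes, and with both the SE spans 0 for all but Mmp8 and Retnlg.

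The gap between the WT libraries was larger than that between the KO libraries in each of the 9 genes. WT replicate 2 exceeded WT replicate 1 by 2.32-fold (Retnlg) to 156-fold (Cd177), with a median of 23.8-fold, and by at least 10-fold in 7 of the 9 genes. The higher KO library exceeded the lower by 1.04-fold (Ngp) to 2.22-fold (Camp), with a median of 1.41-fold. On the log2(CPM + 1) scale the WT gap was at least 2 in the same 7 genes and in 0.806% of all genes. A WT gap as large as that of Ngp, 5.55, was reached by 0.0131% of all genes, and one as large as that of S100a8, 3.59, by 0.111%. The KO gap was reached by 85.8% of genes for Ngp (0.06), by 10.2% for S100a9 (0.63) and by 1.93% for Camp (1.13), and for the other 6 by 21.4% to 51.9%. Camp thus also had one of the larger gaps between the KO libraries.

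**Figure D3:**
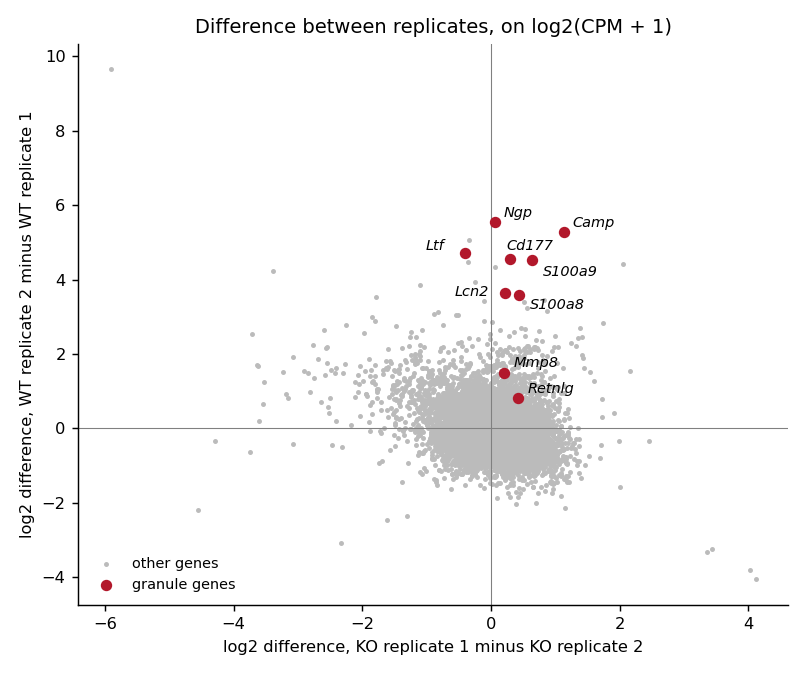
Difference between the replicates of each group for all 15255 genes on log2(CPM + 1), KO replicates on the horizontal and WT replicates on the vertical axis, with the granule genes in red. Of the 9 genes, 7 lie above a WT difference of 2, while their KO differences stay between -0.40 and 1.13.

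The makeup of the granule RNA was compared within each library, with ratios chosen after the values were seen and given without a test. S100a8 and S100a9 together made up 77.5% and 77.7% of the summed CPM of the 9 genes in the KO libraries, against 80.2% and 64.0% in the WT libraries. The ratio of Ltf to Ngp was 0.0904 and 0.133 in the KO libraries, against 0.397 and 0.288 in the WT libraries. That ratio was lower in both KO libraries than in both WT libraries, though Ltf in WT replicate 1 rested on 27 reads. Ngp to Camp was 0.474 and 1.01 in the KO libraries, against 0.673 and 0.869 in the WT libraries, with no order by group.

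Reads assigned to genes numbered 16908812 and 16522338 in the KO libraries, against 17222255 and 17271936 in the WT libraries, so depth was nearly equal. Xist, the RNA of the silenced X chromosome, had 15.7 and 1004 CPM in the KO libraries, against 0.113 and 889.5 CPM in the WT libraries, so libraries 1 and 2 differed in sex-linked RNA in both groups. Of the 9 granule genes, 8 were higher in KO replicate 1 than in KO replicate 2, while all 9 were lower in WT replicate 1 than in WT replicate 2; the part of sex in the result was not tested. The defining genes of the sort were present in all 4 libraries. Kit had 254 and 223 CPM in the KO libraries, against 341 and 243 CPM in the WT libraries, and Ly6a (Sca-1) had 95.4 and 76.9 CPM in the KO libraries, against 57.1 and 61.6 CPM in the WT libraries. The summed CPM of 12 LSK marker genes was 1162 and 775 in the KO libraries, against 2065 and 1192 in the WT libraries, and 1 of the 12, Cd48, passed as lower (limma adjusted p = 0.0453). WT replicate 1 had the highest sum of LSK markers, though Ly6a was lowest there and Slamf1 was highest in KO replicate 2, and the lowest sum of granule genes; the part of this in the result was not tested.

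Other genes of the late neutrophil programme were examined as a list of 42, of which 36 were measured. By limma 1 rose and 1 fell, and the median log2 fold change was -0.31, against -0.02 over all genes. An unadjusted p under 0.05 was seen for 7 of the 36, against 3171 of all 15255 genes (limma). Adam8, a surface metalloprotease, rose to 30.4 and 39.7 CPM in the KO libraries, against 5.15 and 11.3 CPM in the WT libraries (log2 fold change 2.04 ± 0.35, limma adjusted p = 0.0343); its exons overlap Gm16201 on the opposite strand. Adam8 missed the threshold by edgeR (adjusted p = 0.0624). It passed as higher by DESeq2 (adjusted p = 8.51e-06) and with a replicate block (0.00153 by limma and 0.00118 by edgeR). Its log2 fold change was 2.23 without KO replicate 1 and 1.85 without KO replicate 2 (limma). The call was lost in these last fits, which called few genes or none of the whole table.

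Of the 8 most abundant other genes of that list, 0 passed by limma with all 4 libraries. Lyz2 (lysozyme) had 116 and 82.6 CPM in the KO libraries, against 161 and 384 CPM in the WT libraries. Csf3r, the receptor for granulocyte colony-stimulating factor, had 98.2 and 45.6 CPM in the KO libraries, against 127 and 132 CPM in the WT libraries. Alox5ap, which serves leukotriene synthesis, had 72.6 and 51.3 CPM in the KO libraries, against 110 and 121 CPM in the WT libraries (limma adjusted p = 0.0530). Alox5ap passed as lower with a replicate block (adjusted p = 0.0204 by limma and 0.0211 by edgeR), under median-of-ratios scaling (0.0473), by DESeq2 (0.00152) and with either WT library left out (limma adjusted p = 0.0373 without WT replicate 1 and 0.0480 without WT replicate 2). In these 3 genes, and in Slpi and Anxa1, both KO libraries lay below both WT libraries, unlike the granule genes. That order held for 11 of the 36 measured late neutrophil genes, against 26.9% of all genes. Ncf1, Hp, Anxa1, Slpi and Itgb2 had log2 fold changes of -0.69, -0.85, -0.50, -1.37 and 0.50, and Slpi passed as lower by DESeq2 (adjusted p = 0.00374).

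The order of the granule genes, with both KO libraries between the WT libraries and WT replicate 2 highest, was seen in 15 of these 36 genes. WT replicate 2 was the highest library in 29 of 36, against 9 of 9 granule genes and 23.8% of all genes. The median log2 difference between WT replicate 2 and WT replicate 1 was 1.16 in this list and 4.52 in the granule genes. The count of calls moved with the WT library used, to 1 higher and 14 lower without WT replicate 1 and to 9 higher and 2 lower without WT replicate 2 (limma).

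The primary granule genes, made earlier in the lineage, had a far higher summed CPM and followed another order. Of 10 measured genes 0 passed by limma, edgeR or DESeq2 with all libraries, with 0 at an unadjusted p under 0.05 by limma. Mpo (myeloperoxidase) had 1822 and 1355 CPM in the KO libraries, against 1877 and 5840 CPM in the WT libraries. Elane (neutrophil elastase) had 630 and 396 CPM in the KO libraries, against 447 and 2048 CPM in the WT libraries. Prtn3 (proteinase 3) had 1129 and 575 CPM in the KO libraries, against 1208 and 3191 CPM in the WT libraries.

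WT replicate 2 was again highest, in 10 of 10 primary granule genes, but the KO libraries lay near WT replicate 1. The median log2 difference of the KO mean from WT replicate 1 was 0.04 in the primary granule genes and 2.50 in the later granule genes, and from WT replicate 2 it was -1.28 and -1.43. The ratio of Mpo to Camp was 21.2 and 35.0 in the KO libraries, against 328 and 22.5 in the WT libraries. WT replicate 1 held primary granule RNA with little RNA of the 9 granule genes, and the other 3 libraries held both. This did not extend to the 36 other late neutrophil genes as a sum. They summed to 1158 CPM in WT replicate 1 and 2558 CPM in WT replicate 2, against 1235 and 909 CPM in the KO libraries. Their median log2 difference of the KO mean from WT replicate 1 was 0.31. Without WT replicate 1, 4 of the 10 primary granule genes passed as lower in the KO (Mpo, Elane, Ctsg and Prss57, limma), against 2.46% of all genes in that fit. Without WT replicate 2 these 4 did not pass, with limma adjusted p of 0.488, 0.773, 0.514 and 0.518.

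**Figure D4:**
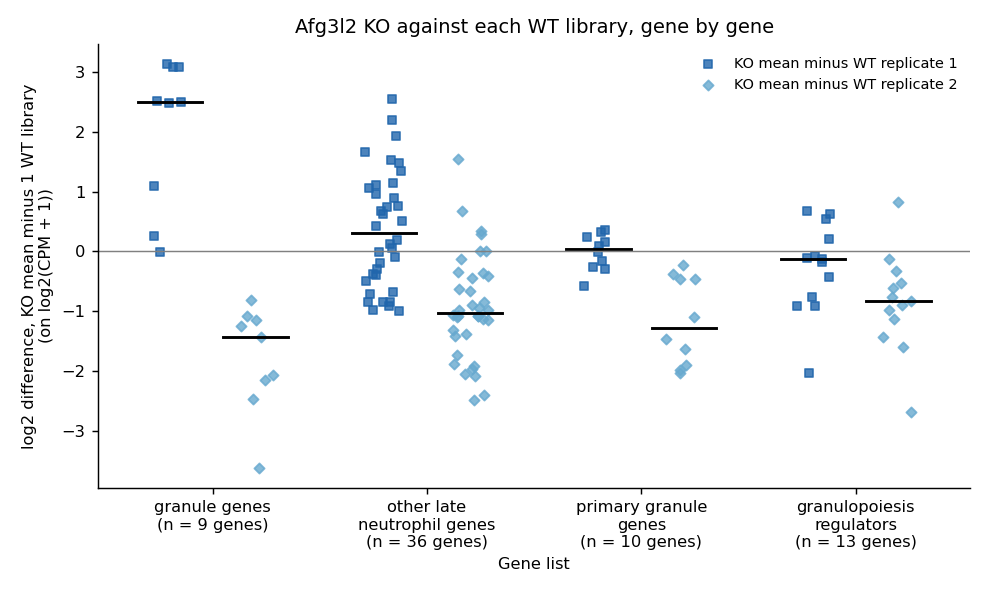
Log2 difference of the KO mean from WT replicate 1 and from WT replicate 2, per gene, for the granule genes and 3 other lists; black bars are medians. The granule genes lie mostly above WT replicate 1, with a median of 2.50. The primary granule genes centre on 0.04 there and the other late neutrophil genes on 0.31. The medians of these lists lie below WT replicate 2.

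Among 13 regulators of granulocyte development, which include Csf3r of the list above, 0 rose and 1 fell by limma. An unadjusted p under 0.05 was seen for 5 of the 13, against 3171 of all 15255 genes (limma). Klf4 is a transcription factor of monocytic differentiation. It fell to 10.2 and 7.24 CPM in the KO libraries, against 38.2 and 60.9 CPM in the WT libraries (log2 fold change -2.36 ± 0.28, limma adjusted p = 0.0101). Klf4 also passed as lower by edgeR (adjusted p = 0.0175) and by DESeq2 (3.35e-12). Its log2 fold change was -2.58 without KO replicate 1 and -2.14 without KO replicate 2, and the call was lost in both fits (limma). Cebpa is the factor needed for entry into granulocyte development. It had 56.4 and 41.5 CPM in the KO libraries, against 92.6 and 148 CPM in the WT libraries. Cebpa missed the threshold by limma (adjusted p = 0.0650), by edgeR (0.0762) and with a replicate block (0.149 by limma and 0.193 by edgeR). With all 4 libraries, DESeq2 called it lower (adjusted p = 0.000128). Its log2 fold change was -1.60 without WT replicate 1 and -0.92 without WT replicate 2 (limma). Runx1 had 80.7 and 84.8 CPM in the KO libraries, against 142 and 126 CPM in the WT libraries. It missed the threshold by limma (adjusted p = 0.0515) and by edgeR (0.0569). With a replicate block it passed as lower (adjusted p = 0.0119 by limma and 0.0090 by edgeR). It also passed as lower by limma under median-of-ratios scaling (adjusted p = 0.0494) and by DESeq2 (0.00141). For Spi1, Irf8, Stat3, Cebpb and Gfi1 the log2 fold changes were -0.63, -0.54, -0.12, 0.10 and -0.28. By limma with all 4 libraries 0 of these 5 passed, and Spi1 passed as lower by DESeq2 (adjusted p = 0.0457). Exons of Cebpa, Runx1, Stat3, Cebpb and Gfi1 overlap genes on the opposite strand, as do those of Mpo, Prtn3, Ncf1 and Alox5ap above.

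Cebpe, which encodes C/EBP epsilon and was chosen after its values were seen, followed the order of the granule genes. It had 24.2 and 15.5 CPM in the KO libraries, against 12.2 and 53.9 CPM in the WT libraries (log2 fold change -0.40 ± 0.86, limma adjusted p = 0.838). Its gap between the WT libraries was smaller than those of the secondary granule genes described above. The same order was seen in 3 of the 13 regulators, with Gfi1 and Cebpb beside Cebpe, against 6.69% of all genes.

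The 10 genes whose pattern over the 4 libraries was nearest to the median of the granule genes were found by the root mean square distance of centred log2(CPM + 1), leaving out genes whose mean was under 1 CPM. They were Igkv6-20, Chil3, Abca13, Fcnb, Igkv12-41, Rhou, Igkv6-25, Itgb2l, Slfn4 and Ighv2-4, at distances of 0.26 to 0.54. Chil3, Fcnb and Itgb2l are on the list of late neutrophil genes, and Chil3, a chitinase-like secreted protein, had 27.98 and 26.8 CPM in the KO libraries, against 6.45 and 149 CPM in the WT libraries. Of the 10, 4 are antibody gene segments. With 4 libraries such likeness is a description.

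Markers of other cells also differed between the WT libraries. WT replicate 1 was the lowest library for 8 of 8 tissue macrophage genes, against 31.3% of all genes, and their summed CPM was 407 and 198 in the KO libraries, against 40.1 and 164 in the WT libraries. Slc40a1, the iron exporter, had 72.2 and 68.1 CPM in the KO libraries, against 16.6 and 42.0 CPM in the WT libraries, and Vcam1 had 88.4 and 34.0 CPM in the KO libraries, against 8.26 and 48.4 CPM in the WT libraries. Unlike the granule genes, 6 of the 8 macrophage genes had both KO libraries above both WT libraries, against 27.2% of all genes. Of the 8, 0 passed and 3 had an unadjusted p under 0.05, against 3171 of all 15255 genes (limma). Summed eosinophil markers (6 measured of 8) were 48.5 and 40.1 CPM in the KO libraries, against 29.1 and 84.7 CPM in the WT libraries, the same order as the granule genes. Prg2 had 31.4 and 27.999 CPM in the KO libraries, against 18.4 and 56.1 CPM in the WT libraries, and Siglecf had 6.06 and 4.83 CPM in the KO libraries, against 8.04 and 12.3 CPM in the WT libraries.

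Monocyte markers summed to 361 and 352 CPM in the KO libraries, against 485 and 1173 CPM in the WT libraries, and 3 of 8 fell by limma (Csf1r, Cx3cr1 and Ms4a6c, with log2 fold changes of -1.61, -2.29 and -1.68). Exons of these 3 overlap genes on the opposite strand. Basophil and mast cell markers summed to 385 and 439 CPM in the KO libraries, against 358 and 690 CPM in the WT libraries, and 1 of 7, Cma1, rose (limma adjusted p = 0.0293). Their 2 most abundant genes stood in opposite orders. Gata2 had 268 and 304 CPM in the KO libraries, against 204 and 135 CPM in the WT libraries, and Prss34 had 35.99 and 34.6 CPM in the KO libraries, against 70.0 and 345 CPM in the WT libraries. None of the marker genes named in these lists had a library at 0. The part of these cells in the result for the granule genes was not tested.

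**Figure D5:**
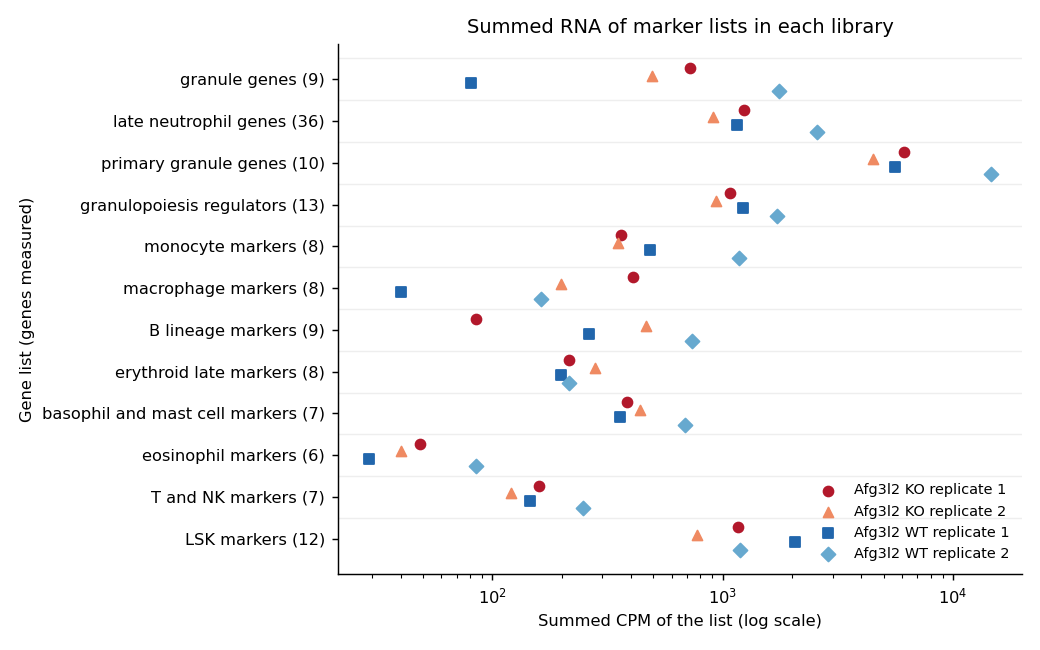
Summed CPM of the granule genes and of each marker list in the 4 libraries, on a log scale, with the number of genes measured in brackets. The granule genes span 80.8 to 1757 CPM, both in WT libraries, with the KO libraries at 721 and 492 CPM between them.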

How the data were processed

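Reads were aligned and counted with STAR 2.7.10a and featureCounts 2.0.1 on GRCm38.p6, per the submitters' processing notes; the annotation release and counting settings are not given in the sources used here. The authors deposited 1 table of 15255 genes with a normalized signal per library, named CPM per the file headers. The deposited CPM columns do not sum to the same total, so the scaling was not by the plain sum of reads. Each deposited CPM value was a whole multiple of what 1 read is worth in its library (100% of values within 0.01), which gave reads. The deposited table also holds a log2 fold change and a mean log2 abundance from the authors, the likelihood ratio as a score deposited by the authors, and the authors' p-value and adjusted p-value. Their lists of higher and lower genes were read for membership.

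The planned test for normalized values was used: limma 3.58.1 (R 4.3.3), applied to log2(CPM + 1), group only, trend and robust moderation, two-sided, with Benjamini-Hochberg adjustment over all 15255 genes. Fold changes on that scale understate changes of low genes. EdgeR 4.0.16 and DESeq2 1.42.0 ran on recovered reads. Scripts were tested on simulated data. Members and lists were chosen with earlier results of these data known. All 10 members are named; of other neutrophil lists, the genes that passed and the 8 most abundant; of marker lists, sums and the top 2. Some genes that the rule covers are counted in their lists but not reported here. Intervals are exact Poisson and cover counting error only. Across genes, Pearson's r of log2 values was 0.983 for the KO pair and 0.973 for the WT pair of libraries. Positions come from GENCODE M21, promoters from RefSeq.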

Additional observations from a re-analysis of the deposited data

How the results depend on the processing

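For the 9 granule genes the count of calls stayed at 0 with all 4 libraries under median-of-ratios scaling, a filter of 1 CPM in both libraries of a group (which left out Mmp8), a pseudocount of 0.1 CPM, edgeR, DESeq2 (which gave Mmp8 no adjusted p) and a replicate block; it ran from 0 to 6 when 1 library was left out. The log2 fold change turned negative in edgeR and DESeq2 without a replicate block for S100a8 (both -0.18), S100a9 (both -0.46), Ngp (both -1.52), Camp (both -1.09), Lcn2 (both -0.26) and Cd177 (both -1.26). With 1 library left out it ran from -1.08 to 2.51 for S100a8, -1.43 to 3.09 for S100a9, -3.62 to 1.09 for Ltf, -2.47 to 3.08 for Ngp, -2.15 to 3.13 for Camp, -1.14 to 2.50 for Lcn2, -1.25 to 0.25 for Mmp8 and -2.08 to 2.48 for Cd177. Of all genes limma called 369; the count was 1221 by DESeq2, and 0 to 1068 with 1 library left out (0 without KO replicate 2, where 1209 genes had an unadjusted p under 0.05). Late neutrophil genes called were 0 by edgeR (8 at an unadjusted p under 0.05), 5 by DESeq2 and 0 to 15 with 1 library left out. Regulators called were 2 under median-of-ratios scaling, 5 by DESeq2 and 0 to 6 with 1 library left out. The cause of these moves was not tested.

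The replicate numbers are not stated to mark a shared animal, litter or day. The authors' name for the deposited comparison holds the word paired, without saying what was paired. Their log2 fold changes were, for example, 0.73 for S100a8 and 0.83 for Lcn2. EdgeR gave 0.70 and 0.65 with a replicate block and -0.18 and -0.26 without it. The main test here used group only, so a pairing, if there was one, was left out of it. Deviations of same-numbered libraries had a correlation of 0.286 across 13795 genes, which are not independent replicates. With a replicate block the count over all genes was 1779 by limma and 1789 by edgeR. Both then called 3 regulators and 0 of the granule genes, whose log2 fold changes had the same sign as by limma without it.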

Other observations

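B lineage, lymphoid and red cell genes gave orders of their own. The summed CPM of 9 B lineage markers was 84.7 and 464 in the KO libraries, against 262 and 733 in the WT libraries, so KO replicate 1 was lowest and WT replicate 2 highest; 0 of 9 passed by limma, with 0 at an unadjusted p under 0.05. Summed T and NK cell markers were 160 and 121 CPM in the KO libraries, against 146 and 247 CPM in the WT libraries. Summed late erythroid markers were 215 and 278 CPM in the KO libraries, against 198 and 214 CPM in the WT libraries, and the spread between WT libraries was 1.08-fold there, where it was 21.8-fold for the granule genes.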
